A study of Mus musculus with 6 samples.

Results

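Inhibitory checkpoint receptors are surface proteins that restrain T cells after they recognize antigen, and Tox is a transcription factor of the nucleus that accompanies their sustained expression. The 9 genes described here were taken from a fixed list of symbols: Pdcd1, Ctla4, Btla and Vsir, whose products belong to or resemble the CD28 and B7 families, Cd160, Tigit, Lag3 and Havcr2, which encode receptors of other immunoglobulin-like families, and Tox. All 9 symbols matched exactly 1 of the 28773 gene IDs in the files.

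A checkpoint receptor works by binding a ligand on a neighboring cell and recruiting phosphatases or displacing a stimulating receptor from the same ligand, which weakens the signal from the T cell receptor. Several of these receptors appear briefly after activation, and their lasting coexpression together with Tox is the textbook mark of exhausted CD8+ T cells in tumors and chronic infection. Some of them are also present on resting or memory T cells and on other leukocytes, Btla on B cells and Vsir on myeloid cells among them.

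Bulk RNA-seq was performed on day 35 on CD8+ T cells of mouse spleens. In the MWA+PBS group (samples 1, 2 and 3) the tumor was treated by microwave ablation (MWA), in which heat from a microwave probe destroys the tumor in place, and the mice then received the vehicle PBS. In the MWA+2DG group (samples 4, 5 and 6) the same ablation was followed by 2-deoxy-D-glucose (2DG), a glucose analogue that blocks glycolysis, so that the ablation was shared by both groups and the comparison concerned 2DG. The study worked with female mice carrying implanted tumor lines, and gave 2DG by repeated intraperitoneal injection that ended before the spleens were taken. The strain, age and tumor line of the sequenced mice and the number of mice behind a sample were not given in the labels, so the p-values below measure the spread between samples, which may in part be technical. The cells were enriched with a magnetic isolation kit after red cell lysis and were not sorted for a checkpoint receptor.

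Levels are in FPKM, the fragments of a gene divided by its transcript length and by the mapped fragments of the library, which allows genes to be compared per length. FPKM totals lay between 291803 and 313257 in the 6 samples, and between 12198 and 12515 genes reached an FPKM of 1. Read depth is unknown, so no counting interval could be attached to a value. The 12444 genes with a mean FPKM of at least 1 were compared on log2(FPKM + 1) with limma, and a gene was called at a Benjamini-Hochberg adjusted p under 0.05 over all of them. A log2 fold change below is the difference of group means on that scale, MWA+2DG minus MWA+PBS, and understates the change of low genes.

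The defining CD8 T cell markers were high in each sample, and markers of other cells differed between the groups. Cd8a, the alpha chain of CD8, averaged 231.5 ± 6.96 FPKM in MWA+PBS against 366.4 ± 9.47 FPKM in MWA+2DG (mean ± SD, n = 3 each, here and below), and Cd4 stayed at or under 2.91 FPKM in each sample. All 6 CD8 T cell markers were higher in MWA+2DG, and their summed FPKM was 1008 to 1065 in MWA+PBS against 1480 to 1572 in MWA+2DG. The 10 monocyte and macrophage markers, with 9 lower and 1 higher (Lyz2), summed to 875.2 to 935.0 FPKM in MWA+PBS against 311.1 to 346.1 FPKM in MWA+2DG. All 8 neutrophil markers were higher in MWA+2DG, with sums from 53.9 to 79.0 FPKM against 1515 to 1686, and so were all 8 B cell markers, from 9.47 to 10.5 FPKM against 52.1 to 56.9. The 6 erythroid markers were all lower, from 134.3 to 150.9 FPKM against 26.8 to 34.7. The highest genes of these lists were Cd8b1, Lyz2 (Hmox1 in MWA+PBS), Ngp, Cd79b and Hba-a1. None of their genes was at 0 in all samples. Of all genes tested, 22.3% were higher and 17.1% were lower in MWA+2DG. In bulk RNA, fewer cells of a type and less RNA per cell cannot be told apart, and the part of these other cells in the results on the receptors was not tested except where a value is given beside them.

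Of the 9 genes, Btla and Tox were higher and Lag3 was lower in MWA+2DG, while Pdcd1, Tigit, Ctla4, Cd160, Havcr2 and Vsir did not pass the test. These 3 called genes are 33.3% of the 9, beside 39.4% of all genes tested (22.3% higher and 17.1% lower), so the share of genes called was close to that of the whole table. In 5 of the 9 (55.6%) the values of the groups did not overlap, beside 52.1% of all genes tested. The MWA+2DG values lay above in 4 of these genes and below in 1, beside 30.2% and 21.9% of all genes tested. The fold change was positive for 7 of the 9, and its median was 0.19 on the log2 scale, beside 0.05 over all genes tested. By the study's own rule (unadjusted P under 0.05, log fold change past 0.25 in either direction, read here as log2) Tigit also counted as higher, which made 4 of the 9 beside 38.2% of all genes tested. For each of the 5 genes without overlap (Btla, Tox, Tigit, Pdcd1 and Lag3) an exact permutation test (two-sided, on the group means) gave p = 0.1, the smallest p that 3 samples against 3 can give, and 0.18 after adjustment over the 9 genes.

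**Figure D1:**
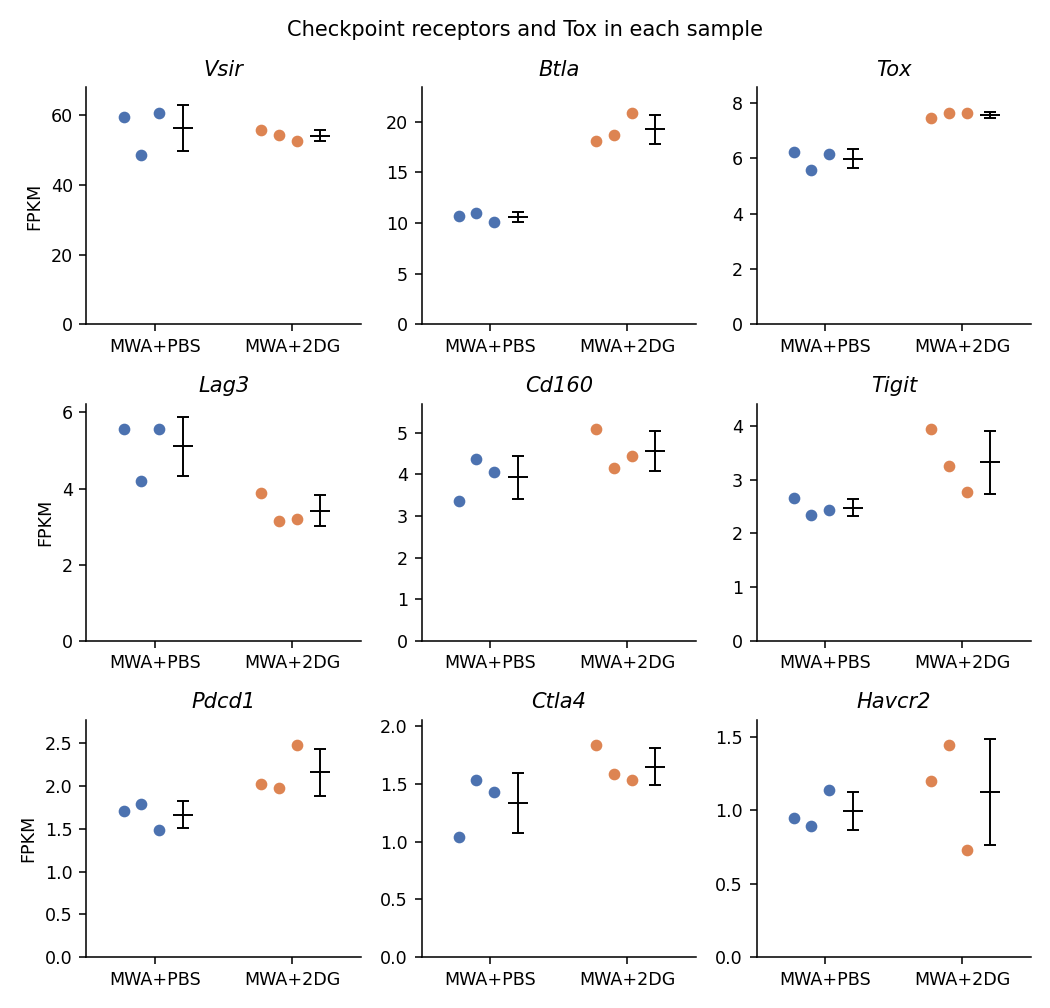
FPKM of each of the 9 genes in each sample (blue, MWA+PBS; orange, MWA+2DG), with the mean and SD of the 3 samples of a group as black bars beside them; each panel has its own axis, starting at 0. The groups separate upward for Btla, Tox, Tigit and Pdcd1 and downward for Lag3, and overlap for Vsir, Cd160, Ctla4 and Havcr2.

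The levels of the 9 genes spanned more than an order of magnitude. Per length, Vsir was the highest in both groups and stood above 95.1% of all genes tested, followed by Btla (above 75.3%) and Tox (above 51.0%). Pdcd1, Ctla4 and Havcr2 were at the bottom, above 15.0%, 8.9% and 1.3% of genes tested. In MWA+PBS the order of mean FPKM was Vsir, Btla, Tox, Lag3, Cd160, Tigit, Pdcd1, Ctla4 and Havcr2, and the neighbors Lag3 and Cd160, Pdcd1 and Ctla4, and Ctla4 and Havcr2 overlapped in their sample values. In MWA+2DG Cd160 (4.56 FPKM) stood above Lag3 (3.42 FPKM) without overlap, and the only neighbors that overlapped were Lag3 and Tigit. The genes best known from exhausted T cells, Pdcd1 and Havcr2, were measured at 2.47 FPKM or less and 1.44 FPKM or less in each of the 6 samples, where the log2 scale with its added 1 compresses differences.

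Btla encodes an inhibitory receptor that binds Tnfrsf14 (HVEM), a member of the TNF receptor family found on most lymphocytes. Its level was 10.71, 10.99 and 10.06 FPKM in MWA+PBS samples 1, 2 and 3, and 18.06, 18.71 and 20.87 FPKM in MWA+2DG samples 4, 5 and 6. Each MWA+2DG sample lay far above each MWA+PBS sample, and the spread within a group was small beside the gap. The mean rose from 10.6 ± 0.477 to 19.2 ± 1.47 FPKM, a ratio of 1.81, with a log2 fold change of 0.80 ± 0.07 (SE, 95% interval 0.64 to 0.96, limma adjusted p = 0.000122). This signed fold change was above that of 97.5% of all genes tested, falls included. Btla was called in all 17 alternative settings, with log2 fold changes between 0.44 and 0.85.

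B cells are known to carry Btla, and the B cell markers rose with it. Ms4a1 (CD20), a surface protein of B cells, averaged 0.117 ± 0.0551 FPKM in MWA+PBS against 4.15 ± 0.159 FPKM in MWA+2DG. The CD8 chains rose as well, and Btla was therefore also set against Cd8a within each sample. Per 100 FPKM of Cd8a, Btla measured 4.67, 4.59 and 4.46 FPKM in MWA+PBS against 4.97, 5.21 and 5.54 FPKM in MWA+2DG. The groups still did not overlap, and the gap was smaller, 4.57 ± 0.107 against 5.24 ± 0.282. How much of the Btla RNA came from B cells was not tested.

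Cd160 encodes a receptor of cytotoxic lymphocytes that binds the same Tnfrsf14, and it did not move with Btla beyond the spread between samples. Its values were 3.35, 4.37 and 4.07 FPKM in MWA+PBS against 5.09, 4.15 and 4.44 FPKM in MWA+2DG. The lowest MWA+2DG sample lay inside the MWA+PBS range, and the means, 3.93 ± 0.524 and 4.56 ± 0.481 FPKM, differed by 0.18 ± 0.10 on the log2 scale (95% interval -0.07 to 0.42, limma adjusted p = 0.216). The interval leaves room for a change in either direction. Tnfrsf14 itself averaged 46.1 ± 4.28 and 53.2 ± 0.977 FPKM and missed the threshold (log2 fold change 0.21 ± 0.07, limma adjusted p = 0.0566), which it passed narrowly with quantile normalization (0.22, limma adjusted p = 0.0495) and arrayWeights (0.15, limma adjusted p = 0.0418). With 1 sample left out, the fold change of Tnfrsf14 ran from 0.13 to 0.25. The ratio of Btla to Cd160 within a sample was 3.20, 2.52 and 2.47 in MWA+PBS against 3.55, 4.51 and 4.70 in MWA+2DG. Its mean went from 2.73 ± 0.407 to 4.25 ± 0.617 without overlap, a log2 difference of 0.64. Btla to Tnfrsf14 behaved alike, at 0.232 ± 0.0317 and 0.362 ± 0.0346 without overlap, a log2 difference of 0.65. Both ratios gave an exact permutation p of 0.1, and 0.16 after adjustment over the 8 ratios that were computed, a set chosen after the data were seen.

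The promoters of these 2 receptors of Tnfrsf14 are shown because Btla passed the test and Cd160 did not. Each line is the stretch of 250 bases before a RefSeq transcription start (GRCm38.p6), 5′ to 3′ on the strand of the gene. Capitals mark matches on either strand to 5 short motifs of transcription factors active in T cells: TGANTCA (AP-1), TGTGGT (RUNX), GGTGTGA (T-box), GGAAGT (ETS) and AAAGGTCA (the NBRE of NR4A).
Btla, chr16:45224087-45224336 (+): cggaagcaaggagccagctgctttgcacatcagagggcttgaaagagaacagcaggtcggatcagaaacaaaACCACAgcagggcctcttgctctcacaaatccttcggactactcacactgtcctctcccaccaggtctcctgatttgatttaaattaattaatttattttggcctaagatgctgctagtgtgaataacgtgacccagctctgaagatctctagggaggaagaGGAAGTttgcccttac
Cd160, chr3:96829352-96829601 (-): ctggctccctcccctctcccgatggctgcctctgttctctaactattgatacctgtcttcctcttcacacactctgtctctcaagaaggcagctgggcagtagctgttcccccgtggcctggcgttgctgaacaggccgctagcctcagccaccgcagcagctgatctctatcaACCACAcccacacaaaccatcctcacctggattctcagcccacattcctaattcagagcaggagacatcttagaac
Cd160, chr3:96814522-96814771 (-): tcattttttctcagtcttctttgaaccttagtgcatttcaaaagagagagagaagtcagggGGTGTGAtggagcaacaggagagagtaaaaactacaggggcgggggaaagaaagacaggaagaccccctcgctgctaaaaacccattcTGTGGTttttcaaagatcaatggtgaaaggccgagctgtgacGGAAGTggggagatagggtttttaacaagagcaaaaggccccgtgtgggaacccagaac

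The Btla window held a RUNX match 178 bases and an ETS match 16 bases before the start. The upstream Cd160 start had a RUNX match at 76 bases, and the other Cd160 start had RUNX, T-box and ETS matches at 101, 189 and 59 bases. Of all 32851 promoter windows of this length, 14.0% held the RUNX letters, 19.7% the ETS letters, 3.33% the T-box letters, 6.75% the AP-1 letters and 1.34% the NBRE letters. RefSeq windows were found for 7 of the 9 genes, 8 windows in all. The Havcr2 window (chr11:46454681-46454930, +) held an AP-1 match at 200 bases, a RUNX match at 46 bases and ETS matches at 213 and 6 bases. Tigit had a RUNX match at 140 bases and Vsir an ETS match at 101 bases. The windows of Pdcd1 and Ctla4 held none of the 5 sets of letters. A match is a description of the sequence and not evidence of binding. Lag3 and Tox had no entry.

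Tox encodes an HMG box factor that is required for the exhausted state and is also present at lower levels in memory CD8+ T cells. It measured 6.22, 5.58 and 6.16 FPKM in MWA+PBS against 7.45, 7.62 and 7.64 FPKM in MWA+2DG. The groups did not overlap and the MWA+2DG samples were close to each other. The mean rose from 5.99 ± 0.353 to 7.57 ± 0.104 FPKM, a ratio of 1.26, with a log2 fold change of 0.30 ± 0.06 (95% interval 0.15 to 0.44, limma adjusted p = 0.00818). This signed fold change was above that of 80.0% of all genes tested, falls included, and the call held with each of the 6 samples left out in turn.

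Of the relatives of Tox, Tox4 averaged 17.3 ± 0.393 and 17.7 ± 0.677 FPKM and did not pass (log2 fold change 0.03, limma adjusted p = 0.663). Tox2 (0.420 ± 0.201 and 0.283 ± 0.0808 FPKM) and Tox3 (0.0100 ± 0.0173 and 0.0300 ± 0.0300 FPKM) were below the level needed for the test. Within the family Tox was the only gene called. Against Tcf7, an HMG box factor of naive and memory T cells, the ratio of Tox was 0.0193 ± 0.000876 in MWA+PBS against 0.0228 ± 0.000955 in MWA+2DG, without overlap (exact permutation p = 0.1, adjusted 0.16). An antisense gene overlaps an exon of Tox and another gene on the opposite strand overlaps Cd160, but both were nearly silent, at 0.025 FPKM (Gm11802) and 0.133 FPKM (Pdzk1) on average.

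Lag3, a CD4-like receptor that binds MHC class II, was the only one of the 9 genes called as lower. It measured 5.56, 4.20 and 5.55 FPKM in MWA+PBS against 3.89, 3.15 and 3.21 FPKM in MWA+2DG. The groups did not overlap, although MWA+PBS sample 2 and MWA+2DG sample 4 lay close together. The mean fell from 5.10 ± 0.782 to 3.42 ± 0.411 FPKM, a ratio of 0.670, with a log2 fold change of -0.46 ± 0.12 (95% interval -0.73 to -0.19, limma adjusted p = 0.0161). The call was lost when any 1 of 4 of the 6 samples was left out, with limma adjusted p of 0.0579 without MWA+PBS 1, 0.0517 without MWA+PBS 3, 0.0528 without MWA+2DG 5 and 0.0533 without MWA+2DG 6. The fold change stayed between -0.57 and -0.41 over the 6 fits that left out 1 sample.

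Cd8a itself rose, so that division by it lowers any gene in MWA+2DG, and the mean per Cd8a was lower for 92.1% of all genes and lower without overlap for 79.0%. Per 100 FPKM of Cd8a, Lag3 measured 2.42, 1.76 and 2.46 FPKM in MWA+PBS against 1.07, 0.878 and 0.851 FPKM in MWA+2DG. The means were 2.21 ± 0.396 and 0.933 ± 0.120 without overlap, a log2 difference of -1.24 (exact permutation p = 0.1, adjusted 0.16).

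Of 11 activation markers 6 were lower and none was higher, beside 17.1% lower and 22.3% higher of all genes tested. The largest falls were those of Mki67, a nuclear protein of dividing cells (34.2 ± 2.56 to 19.0 ± 1.13 FPKM, log2 fold change -0.81, limma adjusted p = 0.000127), Egr1, an early response factor (-0.62, adjusted p = 0.00226) and Cd44, an adhesion receptor of activated and memory cells (-0.39, adjusted p = 0.00135). Mki67 and Cd44 are also expressed by erythroid precursors and macrophages, whose markers fell, and neither the part of those cells nor any link of these genes to Lag3 was tested.

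Tigit encodes a receptor that competes with the activating receptor Cd226 for the ligand Pvr. Its values were 2.66, 2.35 and 2.43 FPKM in MWA+PBS against 3.94, 3.25 and 2.77 FPKM in MWA+2DG. The groups did not overlap, but MWA+2DG sample 6 was only slightly above MWA+PBS sample 1. The means were 2.48 ± 0.161 and 3.32 ± 0.588 FPKM, with a log2 fold change of 0.30 ± 0.11 (95% interval 0.05 to 0.56, limma adjusted p = 0.0616). Tigit thus missed the adjusted threshold with all samples. It passed without MWA+2DG sample 6 (0.40, limma adjusted p = 0.0302) and not with any other sample left out. Over these fits the log2 fold change ran from 0.20 to 0.40, with limma adjusted p up to 0.175.

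Cd226, the activating receptor, rose from 26.0 ± 4.49 to 44.7 ± 2.45 FPKM (log2 fold change 0.77, limma adjusted p = 0.00149). The ratio of Tigit to Cd226 within a sample was 0.116, 0.0755 and 0.102 in MWA+PBS against 0.0936, 0.0723 and 0.0590 in MWA+2DG. These values overlapped, with means of 0.0978 ± 0.0206 and 0.0750 ± 0.0175, and the difference could not be told from the spread (exact permutation p = 0.2, adjusted 0.229). Cd96, an inhibitory receptor of the same ligand, rose from 52.7 ± 5.60 to 72.2 ± 5.27 FPKM (log2 fold change 0.45, limma adjusted p = 0.00586). Its ratio to Cd226 was 2.04 ± 0.127 in MWA+PBS against 1.62 ± 0.128 in MWA+2DG, without overlap (exact permutation p = 0.1, adjusted 0.16). Per transcript length, then, Tigit and Cd96 had a lower mean ratio to Cd226 in MWA+2DG, and of this pair only Cd96 was free of overlap. Pvrig, given below, was not set against Cd226.

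**Figure D2:**
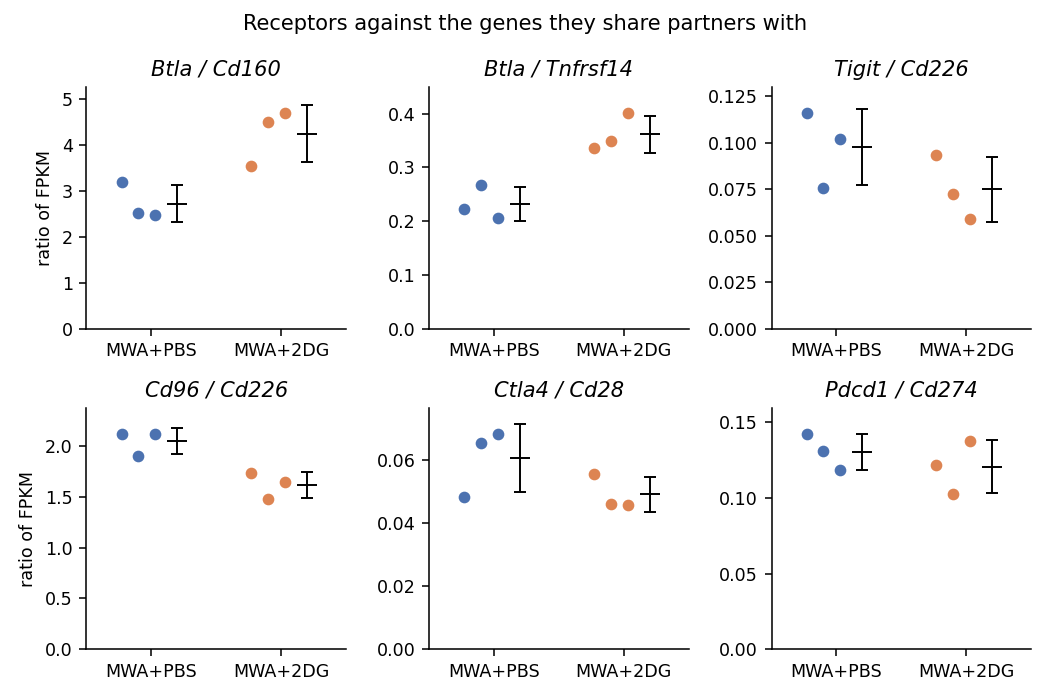
Ratio of FPKM between a receptor and a receptor or ligand that shares its partner, in each sample (blue, MWA+PBS; orange, MWA+2DG), with the mean and SD of the 3 samples of a group as black bars; each axis starts at 0. Btla stands higher against Cd160 and against Tnfrsf14 in every MWA+2DG sample, Cd96 stands lower against Cd226, and the other 3 ratios overlap.

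Pdcd1 encodes PD-1, the receptor of Cd274 (PD-L1) and Pdcd1lg2 (PD-L2). It measured 1.71, 1.79 and 1.49 FPKM in MWA+PBS against 2.02, 1.98 and 2.47 FPKM in MWA+2DG. Each MWA+2DG sample was above each MWA+PBS sample, although MWA+PBS sample 2 and MWA+2DG sample 5 lay close together. The means were 1.66 ± 0.155 and 2.16 ± 0.272 FPKM, with a log2 fold change of 0.24 ± 0.10 (95% interval 0.01 to 0.47, limma adjusted p = 0.0866), short of the threshold over all genes. Cd274 rose from 12.8 ± 0.856 to 17.9 ± 1.33 FPKM (log2 fold change 0.46, limma adjusted p = 0.0024), and the ratio of Pdcd1 to Cd274 overlapped between groups, at 0.131 ± 0.0122 and 0.121 ± 0.0174 (exact permutation p = 0.5, adjusted 0.5). Pdcd1lg2 was below the level needed for the test, at 0.337 ± 0.0907 and 0.703 ± 0.0702 FPKM.

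Ctla4 encodes a receptor that takes the ligands Cd80 and Cd86 away from Cd28. It measured 1.04, 1.53 and 1.43 FPKM in MWA+PBS against 1.83, 1.58 and 1.53 FPKM in MWA+2DG. MWA+PBS sample 2 and MWA+2DG sample 6 had the same value, and the log2 fold change of 0.19 ± 0.11 did not pass (95% interval -0.08 to 0.45, limma adjusted p = 0.229). Regulatory T cells carry much of the Ctla4 of a spleen, and their factor Foxp3 was at 0.550 ± 0.0964 and 0.593 ± 0.180 FPKM, with overlapping groups. Cd28 rose from 22.0 ± 1.29 to 33.6 ± 0.727 FPKM (log2 fold change 0.59, limma adjusted p = 0.000214), whereas the ratio of Ctla4 to Cd28 overlapped, at 0.0606 ± 0.0109 and 0.0491 ± 0.00559 (exact permutation p = 0.2, adjusted 0.229). Cd86, a ligand carried by antigen-presenting cells, fell from 10.1 ± 0.281 to 4.65 ± 0.269 FPKM (log2 fold change -0.98, limma adjusted p = 2.75e-05), beside the lower macrophage markers given above. Cd80 averaged 1.05 ± 0.127 and 0.727 ± 0.275 FPKM, below the filter.

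Havcr2 encodes TIM-3, a receptor of terminally exhausted T cells and of myeloid cells. It measured 0.95, 0.89 and 1.14 FPKM in MWA+PBS against 1.2, 1.44 and 0.73 FPKM in MWA+2DG. The MWA+2DG samples lay on both sides of the MWA+PBS samples, and the log2 fold change was 0.08 ± 0.15 (95% interval -0.26 to 0.42, limma adjusted p = 0.70), with its sign set by MWA+2DG sample 5 (-0.03 without it). Of its partners, Ceacam1, an adhesion receptor of T cells and myeloid cells, rose from 2.55 ± 1.14 to 7.22 ± 0.350 FPKM (log2 fold change 1.26, limma adjusted p = 0.00198). B cells and neutrophils, whose markers rose, also carry Ceacam1, and their part was not tested. Lgals9 (galectin 9) rose by 0.22 on the log2 scale (limma adjusted p = 0.025), a call lost without MWA+PBS 1, MWA+PBS 3, MWA+2DG 4 or MWA+2DG 6 (limma adjusted p = 0.077, 0.0748, 0.0888 and 0.0911), and Hmgb1, a chromatin protein, did not pass (-0.08, limma adjusted p = 0.668).

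Vsir encodes VISTA, a B7-like receptor and ligand of resting T cells and myeloid cells, and was the most abundant of the 9. It measured 59.4, 48.7 and 60.7 FPKM in MWA+PBS against 55.8, 54.3 and 52.5 FPKM in MWA+2DG. The MWA+2DG samples all lay within the MWA+PBS range, and the log2 fold change was -0.05 ± 0.09 (95% interval -0.25 to 0.16, limma adjusted p = 0.696). The interval bounds any change of this gene to less than that of Btla, Tox or Lag3 at their estimates, on the scale of the deposited values. Of its partners, Selplg (PSGL-1) rose by 0.21 on the log2 scale (limma adjusted p = 0.0302). The call was lost without MWA+PBS 2, MWA+PBS 3, MWA+2DG 4 or MWA+2DG 6 (limma adjusted p = 0.0572, 0.0859, 0.0962 and 0.106). It was also lost with no filter (0.0544), with median ratio scaling (0.062) and with eBayes without a trend (0.0501). Igsf11 was at 0.180 FPKM or less in each sample, below the level needed for the test. The myeloid markers that moved in opposite directions, lower for macrophages and higher for neutrophils, are given above, and the part of either in the Vsir level was not tested.

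Because FPKM is relative to all RNA of a sample, and the share of T cell RNA differed between groups, the 9 genes were also compared after each sample was shifted to the same mean log2 level of 17 T lineage genes, such as Cd3e, Cd8a and Lck. Of these 17 genes 13 were higher in MWA+2DG in the FPKM as deposited and none was lower, with a median log2 fold change of 0.38. The shift lowered the log2 fold change of each gene by 0.37 and moved the median of all genes tested to -0.32, and 65.0% of genes were then called, 4.84% as higher and 60.1% as lower. A rise of 0.37 or less turns and a fall stays a fall under such a shift by construction, and the order of the genes by fold change does not change. On this scale Btla was still higher (log2 fold change 0.44, limma adjusted p = 0.0011), and Lag3 (-0.83, adjusted p = 0.0006) and Vsir (-0.41, adjusted p = 0.0064) were lower. The other 6 genes, Tox and Tigit included, had log2 fold changes between -0.29 and -0.06, which did not pass and all lay above the median of all genes. A different weighting of the samples (arrayWeights in limma) called 6 of the 9, with Cd160, Ctla4 and Pdcd1 as additional higher genes, beside 50.7% of all genes tested.

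**Figure D3:**
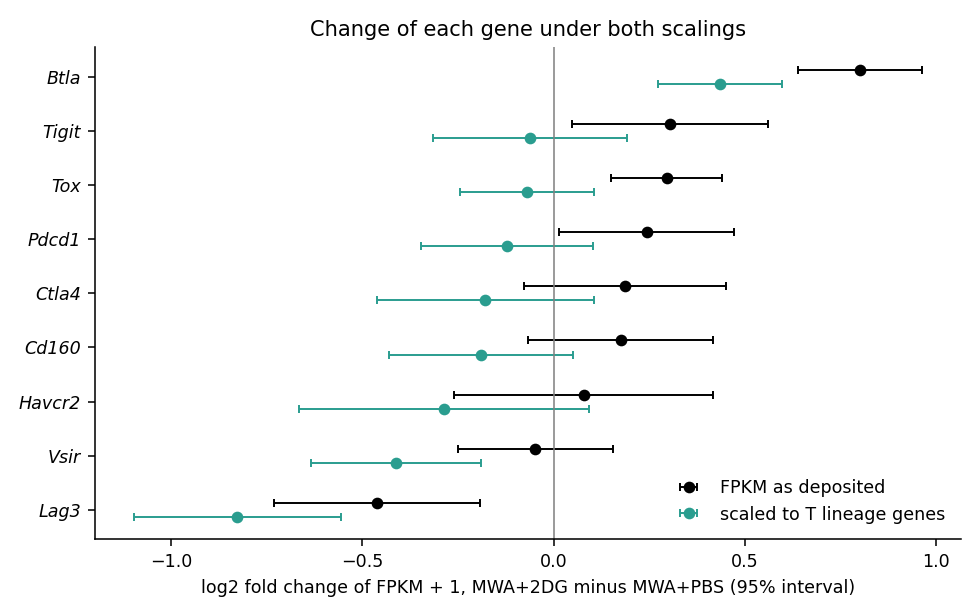
Log2 fold change of FPKM + 1, MWA+2DG minus MWA+PBS, with its 95% interval from limma, for the FPKM as deposited (black) and after scaling to 17 T lineage genes (green). The scaling moves each gene by 0.37 to the left; Btla stays right of 0, Lag3 and Vsir, which the shift could only lower, stay left of 0, and Tox, Tigit, Pdcd1, Ctla4, Cd160 and Havcr2, under 0.37 before the shift, change sign.

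Division by Cd8a within each sample left Btla higher. Per 100 FPKM of Cd8a, 8 of the 9 means were lower in MWA+2DG and that of Btla was higher, beside 92.1% of all genes with a lower mean. The groups did not overlap for 6 of the 9, 5 lower (Lag3, Vsir, Tox, Cd160 and Pdcd1) and 1 higher, beside 81.8% of all genes without overlap, 79.0% lower and 2.85% higher. Vsir went from 24.4 ± 3.52 to 14.8 ± 0.765 and Tox from 2.59 ± 0.224 to 2.07 ± 0.05 on this measure. Btla was thus higher on each of the 3 scales. Lag3 was the only gene already called as lower in FPKM. Vsir was at -0.05 there, with overlapping groups and a sign that turned without MWA+PBS sample 3. The lower values of Vsir and of the other 6 genes on the last 2 scales came with the division by genes that rose.

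The genes around the receptors were taken from hand-written lists. Over these related lists, the members set aside, 87 genes could be tested, of which 30 were higher, 20 were lower and 37 did not pass, with a median log2 fold change of 0.11. With the T lineage scaling 12 of the 87 were higher and 45 were lower, beside 4.84% and 60.1% of all genes tested. Of the 9 ligands and partners tested, of 15 in the list, 5 were higher and 2 were lower, with 22.3% and 17.1% of all genes tested as the background for this and the following lists. Pvr, the ligand of Tigit, rose from 2.63 ± 0.166 to 4.14 ± 0.269 FPKM (log2 fold change 0.50, limma adjusted p = 0.00186), and Lgals3 (galectin 3), a partner of Lag3 made by macrophages, fell from 19.1 ± 1.94 to 10.7 ± 0.875 FPKM (-0.78, adjusted p = 0.00043). After the T lineage scaling, which takes 0.37 from each gene, the log2 fold changes of Pvr and Cd274 were 0.14 and 0.09 and did not pass, and Lgals9 and Selplg passed as lower (-0.15 and -0.16, limma adjusted p = 0.0336 and 0.0267).

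Of 7 activating counterparts of these receptors 5 were higher and none was lower, with a median log2 fold change of 0.59, beside 22.3% higher and 17.1% lower of all genes tested. The T lineage genes moved alike, with 13 of 17 higher, none lower and a median of 0.38. Cd27, a costimulatory receptor of naive and memory T cells, rose from 63.6 ± 1.07 to 111.5 ± 7.36 FPKM (log2 fold change 0.80, limma adjusted p = 6.34e-05), and Tnfrsf18 (GITR) from 7.53 ± 2.15 to 13.3 ± 1.16 FPKM (0.77, adjusted p = 0.00807). Cd27, Cd226 and Tnfrsf18 stayed higher with the T lineage scaling, at 0.43, 0.41 and 0.40.

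Of 15 other inhibitory receptors tested outside the 9, 7 were higher and 6 were lower, with a median log2 fold change of 0.33, beside 22.3% higher and 17.1% lower of all genes tested. The largest rises were those of Siglecg (0.443 ± 0.0569 to 2.52 ± 0.490 FPKM, log2 fold change 1.28, limma adjusted p = 0.000206), Cd101 (0.93, adjusted p = 0.000368) and Cd72 (0.73, adjusted p = 0.000387). Siglecg and Cd72 are known as receptors of B cells, whose markers rose. Neutrophil markers rose as well, and the part of other cells in these 3 rises, that of Cd101 included, was not tested. The largest falls were those of Pilra, a myeloid receptor (9.42 ± 0.571 to 2.56 ± 0.166 FPKM, -1.55, adjusted p = 5.88e-06), Pvrig, a receptor of T and NK cells (7.16 ± 0.692 to 2.89 ± 0.320 FPKM, -1.07, adjusted p = 0.000126), and Entpd1 (CD39), an ectoenzyme of exhausted T cells and of macrophages (7.60 ± 0.307 to 3.37 ± 0.236 FPKM, -0.98, adjusted p = 4.65e-05). The 3 rises also passed with the T lineage scaling.

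Of 16 genes tested that carry the signal of the receptors or move them within the cell, 4 were higher and 2 were lower, with a median log2 fold change of -0.04. These 6 of 16 are close to the 39.4% called among all genes tested. The phosphatases Ptpn6 (SHP-1) and Ptpn11 (SHP-2), which dock on Pdcd1 and Btla, did not pass, at -0.14 and -0.13 (limma adjusted p = 0.236 and 0.128). The kinases Lck (0.41, adjusted p = 0.00171) and Fyn (0.34, adjusted p = 0.00243) and the adaptor Sh2d1a (0.35, adjusted p = 0.0107) rose in FPKM. The call of Sh2d1a was lost when GC and length trends were removed (0.21, limma adjusted p = 0.101). After the T lineage scaling Fyn and Sh2d1a were at -0.03 and -0.01, and Lck is itself one of the genes that set that scale. Trat1, an adaptor that helps to bring Ctla4 to the surface, fell by 0.93 (adjusted p = 0.000182). Ap2m1, which takes Ctla4 back into the cell, fell by 0.25 (adjusted p = 0.0216), a call lost without MWA+PBS 1 or MWA+2DG 4 (adjusted p = 0.0724 and 0.0525).

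Of 14 transcription factors tested that are associated with exhaustion together with Tox, 3 were higher and 3 were lower, a share close to the 39.4% called among all genes tested (22.3% higher and 17.1% lower). Eomes, a T-box factor of memory and exhausted cells, rose from 22.8 ± 0.337 to 45.7 ± 1.87 FPKM (log2 fold change 0.97, limma adjusted p = 1.06e-05), and Irf4 (0.40, adjusted p = 0.00321) and Tbx21 (0.35, adjusted p = 0.00185) rose less. Maf fell from 9.79 ± 0.554 to 2.58 ± 0.367 FPKM (-1.60, adjusted p = 1.35e-05) and Nr4a1, a factor induced by T cell receptor signals, from 12.4 ± 0.358 to 4.76 ± 0.628 FPKM (-1.22, adjusted p = 4.17e-05). Bhlhe40 fell by 0.51 (adjusted p = 0.00176). After the T lineage scaling Eomes stayed higher (0.60), and Irf4 and Tbx21, lowered by 0.37 like each gene, were at 0.03 and -0.01. Maf is also expressed by macrophages, whose markers fell. The part of macrophages in its fall, and in those of Nr4a1 and Bhlhe40, was not tested.

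**Figure D4:**
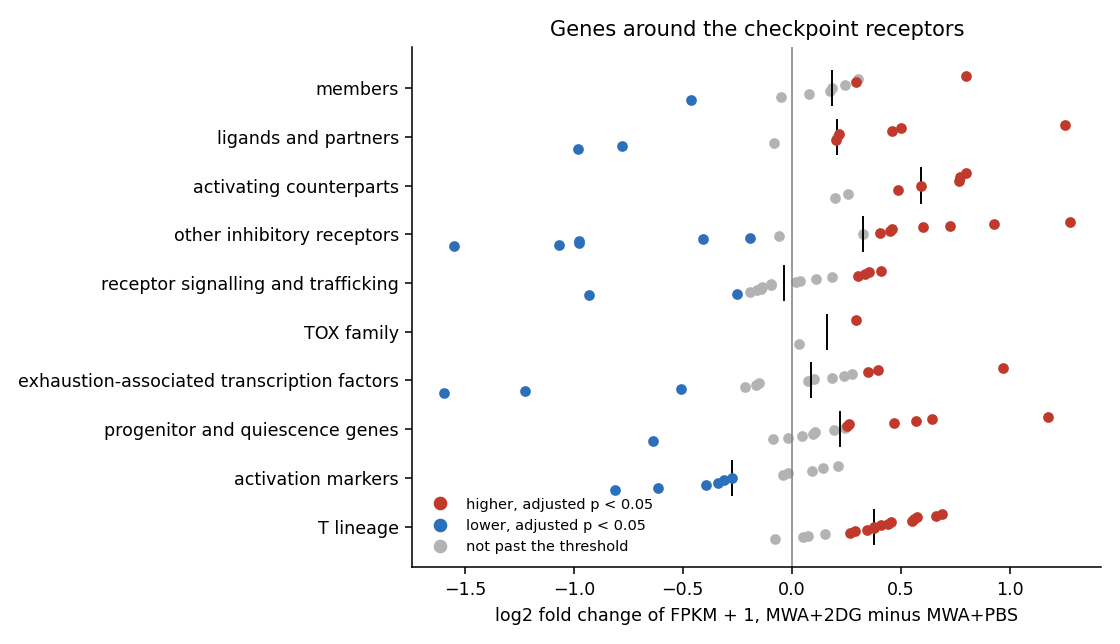
Log2 fold change of FPKM + 1, MWA+2DG minus MWA+PBS, for each tested gene of the 9 members and of the related lists (red, higher; blue, lower; gray, not past an adjusted p of 0.05 by limma), with the median of each list as a black bar. Activating counterparts and T lineage genes lie to the right with medians of 0.59 and 0.38, activation markers to the left with a median of -0.27, and the members lie between with a median of 0.19.

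For each of the 9 genes, the tested genes nearest in pattern were found by the root mean square difference of centered log2(FPKM + 1) over the 6 samples, as a description. The 3 nearest genes differed by between 0.0197 and 0.0619, beside medians over all tested genes between 0.187 and 0.400. Nearest to Btla were Slc25a40, Nmnat2 and Abcb1a, nearest to Tox were Spn, Il1rap and AC119228.1, and nearest to Lag3 were H2afx, Txnl4a and Fut7. For Pdcd1 they were Ahcyl1, Yeats4 and Med8, for Tigit Trav13-2, 4931403E22Rik and Gm14966, for Havcr2 Tigar, Myl6b and A930004J17Rik, and for Vsir Zfp335, Proser1 and Ube3b. Ctla4 (with Magi3 and Zswim3) and Cd160 (with Dmap1 and Brd7) were each among the 3 nearest genes of the other, at a difference of 0.0376, and this was the only such link among the 9.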

How the data were processed

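RNA of splenic CD8+ T cells from 3 MWA+PBS and 3 MWA+2DG samples was sequenced from poly(A)-selected, strand-marked libraries with molecular identifiers in the adapters. The authors deposited FPKM per gene and sample with at most 2 decimals. According to the submitters' processing notes the tools were cutadapt 1.9, HISAT2 2.0.4, UMI-tools and StringTie 1.3.4d with build mm9, and the methods also name fastp and ballgown. For the annotation, and for the use of strand and identifiers in quantification, no statement was found (not given in the sources used here). Since FPKM is a share of the library, a transcript that gains a larger share lowers the rest. A scan of low FPKM values found no step equal to 1 read, so the depth and the precision it sets are unknown.

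Groups were taken from the sample titles. Symbols came from the GENCODE M21 gene table for 28689 IDs, with 84 left without one. No pair of samples held identical values, and Pearson's r of log2 levels was 0.984 to 0.989 within groups and 0.935 to 0.943 between them. Genes with a mean FPKM of at least 1 were fitted as log2(FPKM + 1) with limma (lmFit and trended eBayes, two-sided, no covariates, version 3.58.1 under R 4.3.3) on all 6 samples, with Benjamini-Hochberg adjustment over all genes tested, and the fit was tested on simulated data. The study's methods give limma with P under 0.05 and a log fold change beyond 0.25, whose base is not stated and was read as log2. The members and all gene lists were chosen with earlier results of these data known. 1 symbol each of the other inhibitory receptors (Lilrb4b) and of the NK cell markers (Klra8) was not matched to the files. Named genes were the 9 members, every ligand or partner past the filter, the 3 largest increases and 3 largest decreases called in each other list, identity markers, the highest marker gene of each list and the 3 nearest genes of each member. Cd96, Cd28 and Tcf7 were named for the ratios, and Ptpn6, Ptpn11, Tox2, Tox3, Tox4, Cd80, Pdcd1lg2, Igsf11, Lef1 and Il7r for their roles, after their values were seen.

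Alternatives were a pseudocount of 0.1, no filter, mean FPKM of at least 0.1 or 5, quantile normalization, median ratio scaling, rescaling after removal of ribosomal protein, haemoglobin, immunoglobulin and mitochondrial genes, scaling to T lineage genes, eBayes without a trend, arrayWeights and leaving out each sample. Removal of GC content and transcript length trends and the 8 ratios were added after the data were seen. Promoter sequences are from RefSeq, GRCm38.p6, and no coordinate of the files' build is printed.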

Additional observations from a re-analysis of the deposited data

How the results depend on the processing

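For the 9 genes, 129 of 147 fold changes under an alternative kept their direction and their side of the threshold. Scaling to T lineage genes reversed Tox (-0.0692), Tigit (-0.061), Pdcd1 (-0.12), Ctla4 (-0.18), Cd160 (-0.19) and Havcr2 (-0.29), and of the other named genes Lgals9 (-0.15), Selplg (-0.16), Tnfrsf14 (-0.16), Fyn (-0.0281), Sh2d1a (-0.012) and Tbx21 (-0.0137), by construction, since it lowers each gene by 0.37. Leaving out a sample turned Havcr2 (-0.029 to 0.219), Vsir (-0.15 to 0.0098, positive without MWA+PBS 3) and Hmgb1 (-0.2048 to 0.0537, positive without MWA+PBS 2), and arrayWeights turned Hmgb1 (0.0612). The cause of these 3 turns was not tested.

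With arrayWeights 6 of the 9 genes were called, Cd160 (0.30, limma adjusted p = 0.0298), Ctla4 (0.31, 0.0407) and Pdcd1 (0.24, 0.0477) in addition, beside 50.7% of all genes. None of Cd160, Ctla4 and Pdcd1 passed with 1 sample left out, at 0.09 to 0.24, 0.09 to 0.25 and 0.17 to 0.28. Over fits without 1 sample, 2 to 3 of the 9 were called, 44 to 52 related genes and 46 to 47 marker genes, beside 29.8% to 41.7% of all genes tested. Of all genes, 4752 passed P and fold and 4907 the adjusted p. A mean FPKM of at least 5, with fewer genes tested, left 2562 and 2951, and T lineage scaling gave 7612 and 8086, of which 7.13% and 7.44% were higher in place of 56.5%. Without 1 sample these counts ran from 4544 to 5069 and from 3706 to 5195. Removal of the GC and length trends put Tigit past the threshold (0.31, limma adjusted p = 0.0425). Depth being unknown, low genes such as Havcr2 have no counting error attached. No paired analysis was possible because the groups share no sample number (1 to 3 in MWA+PBS, 4 to 6 in MWA+2DG).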

Other observations

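Genes of progenitor and quiescent T cells, the state that keeps exhausted and memory cells renewable, were higher in 6 and lower in 1 of 14 tested, with a median log2 fold change of 0.22, beside 22.3% higher and 17.1% lower of all genes tested. Cxcr5, a chemokine receptor of follicular and progenitor T cells and of B cells, rose from 2.48 ± 0.375 to 6.85 ± 0.621 FPKM (log2 fold change 1.18, limma adjusted p = 0.00012), Ccr7, which guides cells to lymph nodes, by 0.64 (adjusted p = 0.000177) and Id3 by 0.57 (adjusted p = 0.00443). Myb, a factor of stem-like T cells and of dividing progenitors, fell from 18.1 ± 0.822 to 11.3 ± 0.782 FPKM (-0.64, adjusted p = 0.000294). The other 7 did not pass, among them Tcf7 (0.10, limma adjusted p = 0.384), Lef1 (-0.09, 0.559) and Il7r (-0.02, 0.83). The median of this list lay below the 0.38 of the T lineage genes. With the T lineage scaling Cxcr5 (0.81) and Ccr7 (0.28) stayed higher and Id3 (0.21) did not pass. The B cell markers rose with Cxcr5, and their part in its rise and in those of the other genes of this list was not tested.

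Of the markers of CD4 and regulatory T cells, 5 of 8 could be tested, of which 2 were lower, Cd4 (2.75 ± 0.160 to 1.66 ± 0.110 FPKM, log2 fold change -0.50, limma adjusted p = 0.00252) and Zbtb7b (-0.51, adjusted p = 0.00591), and their summed FPKM was 12.7 to 13.7 in MWA+PBS against 10.8 to 12.2 in MWA+2DG. Of the NK cell markers 2 were higher and 3 were lower of 5 tested, with sums from 189.5 to 201.3 FPKM against 170.3 to 179.2, most of it Il2rb, whose fall was not called when any 1 of 5 of the 6 samples was left out (limma adjusted p = 0.0519 to 0.078). Tyrobp, an adaptor of NK cells and of the macrophages whose markers fell, had the largest fall in FPKM of the list, from 43.5 ± 2.91 to 16.9 ± 2.93 (log2 fold change -1.32, limma adjusted p = 0.000126), and Ncr1, an NK cell receptor, also fell, with means of 6.54 ± 0.554 and 4.92 ± 0.138 FPKM. The 2 rises were those of Eomes, given above, and of Klrk1 (NKG2D), an activating receptor of NK and CD8+ T cells, from 4.91 ± 0.731 to 7.80 ± 0.362 FPKM (log2 fold change 0.58, limma adjusted p = 0.0026, and 0.22 with limma adjusted p = 0.0989 after the T lineage scaling). Of the dendritic cell markers 2 of 3 tested were lower, and the summed FPKM of the list overlapped between groups, from 27.1 to 32.9 and from 26.8 to 31.3. The background for the counts of these marker lists was 22.3% higher and 17.1% lower of all genes tested.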
